A study of Mus musculus with 16 samples.

Results

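The interferon-induced genes and their regulators were followed in the left atrium (LA) and right atrium (RA) of the mouse heart. They were taken by gene symbol, as all array probes annotated to the Ifit, Ifi, Irf, Oas, Isg, Gbp, Mx, Stat2, Usp18, Rsad2, Igtp and Irgm symbols, irrespective of their values. This gave 95 probes of 59 genes among the 25697 probes of the array, of which 23978 carry a gene symbol. Total RNA was taken from both atria of 4 wild-type MF1 mice (MF1_12) and 4 wild-type Swiss-Agouti mice (SA_12), and each atrium was hybridized to its own Illumina MouseRef-8 array, giving 16 arrays with 4 in each group. MF1 and Swiss-Agouti are outbred stocks. The labels and the array section of the study's methods give an age of 12 months for both. Another sentence of the methods names a younger age for the Swiss-Agouti mice. Strain and sex cannot be told apart, since MF1_12 held males and SA_12 females. The labels name no treatment or infection for any group.

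Interferons are secreted by cells that sense viral or bacterial nucleic acid and, for interferon gamma, by activated lymphocytes. Type I interferon signals through JAK kinases to a complex that holds Stat2 and Irf9 and binds the interferon-stimulated response element, whereas interferon gamma acts on gamma-activated sites and through the Irf1 that it induces. The genes switched on in this way include the Oas, Ifit and Mx antiviral proteins, the Isg15 modifier and the Gbp and Irg GTPases that attack the vacuoles of intracellular microbes. Unstimulated tissue expresses many of them at a low resting level.

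Values are normalized log2 signals that the authors centred on the median of each probe, so that 0 is the usual value of a probe and no value is a level. The Bmp10 probe, a gene of right atrial muscle, was higher in RA in both datasets and separated all LA from all RA arrays. LA array 2 of MF1_12 stood apart: its values deviated from the group mean with an SD of 0.23 over all probes, against 0.10 to 0.15 in the other 15 arrays. In SA_12 the mean of 4 ventricular marker genes was 1.11 to 1.66 in RA arrays 2 to 4 and -0.19 to 0.10 in the other 5 arrays, and its part in the results of SA_12 was not tested. Same-numbered arrays of MF1_12 deviated together and were read as both atria of 1 mouse, although no label says so. Bulk RNA cannot tell fewer cells of a type from less RNA per cell.

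No interferon probe differed between LA and RA in either dataset at the threshold of the study, an adjusted p under 0.05 with a fold above 1.5, in the fit without a block. With the replicate number as a block, 1 probe of MF1_12 passed, that of Ifi27l2a, and none of SA_12. Of the whole array, the fit without a block called 0.79% for MF1_12 and 0.63% for SA_12. Limma gave an unadjusted p under 0.05 to 13 of the 95 probes in MF1_12 and to 7 in SA_12. With an ordinary variance for each probe these counts were 13 and 8, and again no probe was called. The median difference of LA minus RA over the 95 probes was 0.01 on the log2 scale in MF1_12 and 0.00 in SA_12, and it was 0.00 over all probes in both. The 95% interval of the fold stayed within 1.5-fold in either direction for 87 probes in MF1_12, or 91.6%, and for 91 probes in SA_12, or 95.8%. Over all probes these shares were 91.6% and 96.6%. The 8 wider intervals of MF1_12 belonged to Rsad2, Ifi30, Gbp2b, both Gbp3 probes, Ifi47, Ifi27l2a and 1 Ifi202b probe. The 4 of SA_12 belonged to Gbp2b, Ifi27l2a, Irgm1 and Ifit3.

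**Figure D1:**
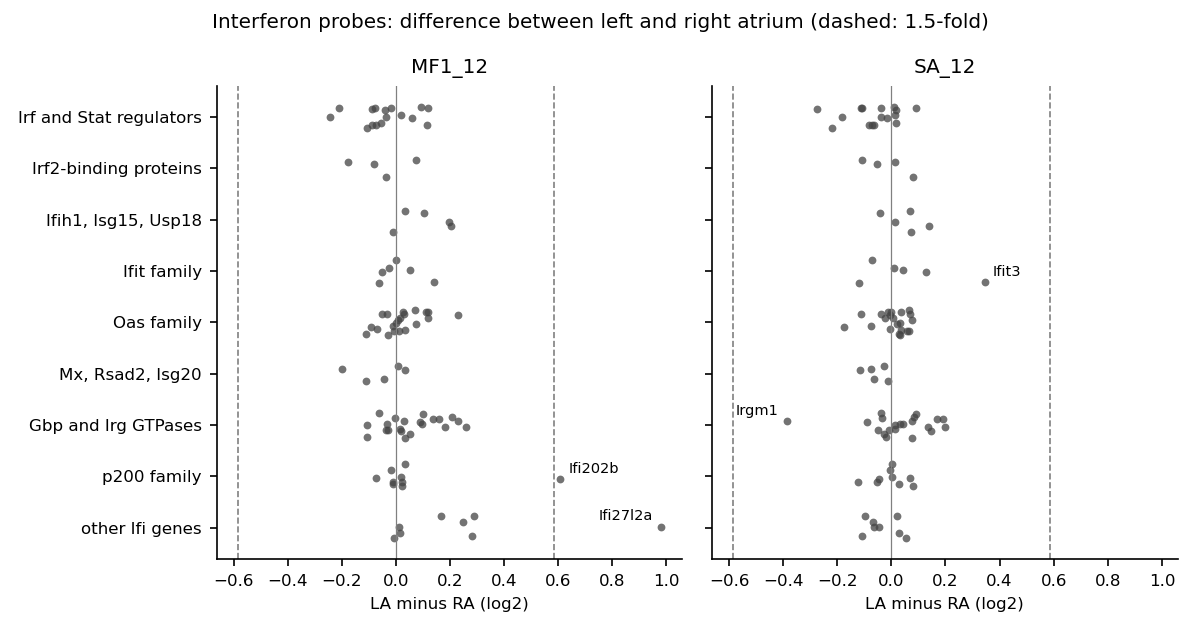
Each point is 1 of the 95 interferon probes, placed by its difference of LA minus RA in log2 units (horizontal axis) and grouped by role (vertical axis), for MF1_12 on the left and SA_12 on the right; dashed lines mark a 1.5-fold difference. Ifi27l2a at 0.98 and 1 Ifi202b probe at 0.61 are the 2 points beyond the dashed lines in MF1_12, and SA_12 has none.

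By count of probes before adjustment, the members of MF1_12 leaned to the left. Of the 95 probes, 11 had an unadjusted p under 0.05 with higher values in LA, or 11.6%, where 5.27% of all probes did. They were Irf7, Stat2, Usp18, Oas1f, Oas1g, Oas2, both Ifi27 probes, Ifi27l2a, Ifi202b and Gbp7. On the right were 2 probes, or 2.11% against 5.67% of all probes, and both were Irf1. LA lay above RA in every array for 5 probes, where 3.22% of all probes did so, and below it for 2, where the background was 3.77%. The lean was not seen in SA_12, where 2 probes had an unadjusted p under 0.05 with higher values in LA and 5 with higher values in RA, against 6.16% and 6.47% of all probes. LA lay above RA in every array for 1 probe of SA_12 and below it for 3, with 3.46% and 3.71% of all probes. Without LA array 1 or RA array 3 the 13 probes of MF1_12 fell to 6 and 7. Probes of one gene or of close relatives are not independent. With the probes of a gene averaged, 8 of the 59 genes had an unadjusted p under 0.05 by limma. Their directions were not counted, so the lean describes probes only.

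Among the regulators, 16 probes of 9 Irf and Stat genes were measured. Irf1, the factor that interferon gamma induces and that drives the genes of antigen presentation, had the most probes. On its probe ILMN_2834777 the LA arrays 1 to 4 of MF1_12 read -0.10, -0.05, -0.22 and -0.11 and the RA arrays 0.17, 0.10, 0.01 and 0.22. Every RA array lay above every LA array, and the difference was -0.24 ± 0.06 (SE, n = 4 and 4), a 1.18-fold higher RA value with an adjusted p of 0.114 by limma. The adjusted p was 0.0814 with the replicate block, and 0.0301 at -0.28 when number 2 was also left out, an alternative added after the data were seen, with a fold below 1.5. In SA_12 the LA arrays of this probe read -0.13, -0.03, -0.24 and -0.11 and the RA arrays 0.09, 0.20, -0.01 and -0.08. The groups of SA_12 overlapped, and the difference was -0.18 ± 0.07 with an adjusted p of 0.298. A second Irf1 probe, ILMN_2599782, gave -0.21 ± 0.07 in MF1_12 and -0.11 ± 0.08 in SA_12, whereas the other 3 Irf1 probes lay between -0.05 and 0.02 in both datasets. The probes of Irf1 thus disagreed on the size of the difference, and which transcript ends they detect was not tested.

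Stat2 and Irf9 belong to the type I interferon complex, and Irf7 amplifies type I interferon production. Stat2 read 0.08, 0.12, 0.03 and 0.05 in the LA arrays of MF1_12 and -0.08, -0.02, -0.08 and 0.01 in the RA arrays. The 2 sides did not overlap, but the distance between them was 1.08-fold, with an adjusted p of 0.366. Irf7 likewise separated the sides by 0.12 ± 0.05 in MF1_12 with an adjusted p of 0.391, and by 0.09 ± 0.05 in SA_12, where the arrays overlapped. For Irf9 both probes gave differences between -0.02 and 0.09 in the 2 datasets. The 95% interval for Stat2 in MF1_12 ran from 1.01-fold to 1.16-fold and that for Irf7 from 1.01-fold to 1.17-fold. These intervals hold for the deposited values of these probes. They set no bound on the change of the regulators, since background and detection are unknown and folds of dim probes may be understated. Irf3, the factor that nucleic acid sensors activate, had 3 probes with differences of -0.27 to 0.02, none of which passed. Its probe ILMN_2664319 in SA_12 read -0.51, -0.42, -0.26 and 0.23 in LA and 0.06, 0.00, -0.02 and 0.10 in RA. LA array 4 was the highest of all 8 there, and without it the difference moved from -0.27 to -0.43 with an adjusted p of 0.0105, a fold below 1.5.

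**Figure D2:**
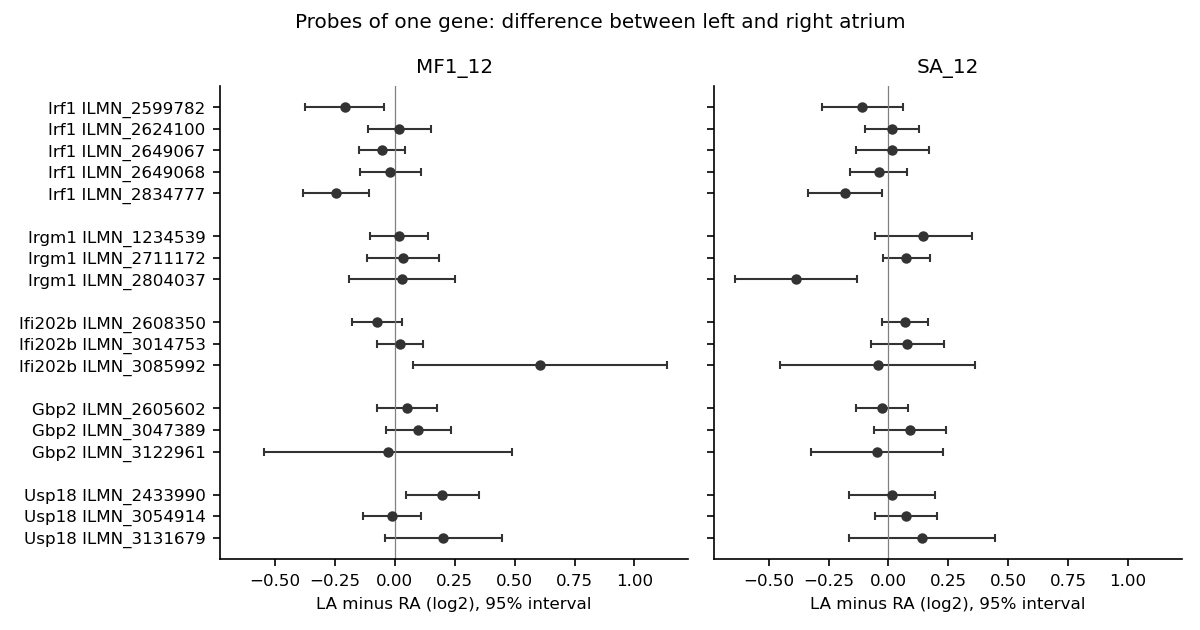
Each row is 1 probe of Irf1, Irgm1, Ifi202b, Gbp2 or Usp18, with its difference of LA minus RA in log2 units (point) and the 95% interval of limma (bar), in MF1_12 on the left and SA_12 on the right. The intervals of 2 of the 5 Irf1 probes lie below 0 in MF1_12, and 1 Ifi202b probe of 3 sits at 0.61.

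Of the Isg15 system and the sensor Ifih1, 5 probes of 3 genes were measured and none passed. Isg15, the ubiquitin-like modifier, read 0.08, 0.07, 0.09 and -0.22 in the LA arrays of MF1_12 and -0.02, 0.01, -0.08 and -0.01 in RA, a difference of 0.03 ± 0.08. LA array 4 was the lowest and the other LA arrays the highest of that set. In SA_12 the difference of Isg15 was 0.07 ± 0.09. Usp18, which removes Isg15 from proteins and dampens the type I receptor, had 1 of 3 probes without overlap in MF1_12. That probe, ILMN_2433990, read 0.18, 0.19, 0.13 and 0.09 in LA and 0.02, 0.08, -0.21 and -0.09 in RA, a 1.15-fold higher LA value with an adjusted p of 0.281. The other Usp18 probes gave -0.01 and 0.20. Ifih1, the sensor of double-stranded RNA also called MDA5, gave 0.10 ± 0.08 in MF1_12 and -0.04 ± 0.05 in SA_12.

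The Oas enzymes make the small messenger that activates RNase L, and all 12 genes of the family on the list were measured, on 21 probes. Their differences ran from -0.11 to 0.23 in MF1_12 and from -0.17 to 0.08 in SA_12, with medians of 0.01 and 0.02. Oas2 had the lowest adjusted p of all members in MF1_12, 0.103. Its LA arrays read 0.21, 0.14, 0.13 and 0.02 and its RA arrays -0.16, -0.02, -0.12 and -0.13. Each LA array was above all RA arrays by a small margin, and the difference was 0.23 ± 0.06, or 1.17-fold. In SA_12 the difference of Oas2 was 0.00 ± 0.05 with complete overlap. The Oas1 genes are close copies of each other, so that their probes may share signal. The Ifit proteins, which bind foreign RNA, had 6 probes with a median of -0.01 in MF1_12 and 0.03 in SA_12. Ifit3 probe ILMN_2944666 was the widest of them, at -0.32, 0.33, -0.02 and 0.18 in LA of SA_12 and -0.30, -0.51, -0.43 and 0.04 in RA. The arrays overlapped, and the 0.34 ± 0.15 difference had an adjusted p of 0.365. The other Ifit3 probes gave 0.04 and 0.13. The dynamin-like GTPases Mx1 and Mx2 stayed between -0.12 and 0.03. Rsad2, or viperin, spread from -0.58 in LA array 2 to 0.58 in RA array 1 of MF1_12, with a difference of -0.20 ± 0.22.

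The 2 members with a difference above 1.5-fold were Ifi27l2a and Ifi202b, both in MF1_12. Ifi27l2a encodes a small membrane protein of the ISG12 family and lies beside its relative Ifi27 on chromosome 12. Its LA arrays 1 to 4 read 1.04, 1.37, 0.59 and 0.05 and its RA arrays -0.51, 0.48, -0.34 and -0.50. LA was higher in 4 of 4 same-numbered pairs of arrays, by 0.55 to 1.55, although the sides overlapped, with RA array 2 above LA array 4. The difference was 0.98 ± 0.31, or 1.97-fold with an interval of 1.21 to 3.21, and its adjusted p was 0.235 without a block. With the replicate number as a block the adjusted p was 0.0244 and Ifi27l2a passed, the only member to do so, where this fit called 1.14% of all probes. Over the alternatives that left out at most 1 array the adjusted p ran from 0.0244 to 0.477. Leaving out both arrays of number 2 gave 1.01 with an adjusted p of 0.0690 without the block and 0.00276 with it. The mean of 6 fibroblast marker genes was 0.71, 0.69, 0.18 and -0.19 in the LA arrays of MF1_12 and 0.17, -0.01, 0.10 and -0.14 in RA. It was high in LA arrays 1 and 2 and lowest in LA array 4, as Ifi27l2a was among the LA arrays, and its part in the call was not tested. The 8 probes of these markers did not go one way, with differences of LA minus RA from -0.64 to 1.02. By unadjusted p under 0.05 of limma, 1 was higher in LA and 2 in RA, where 5.27% and 5.67% of all probes were. In SA_12 Ifi27l2a read -0.57, -0.18, 0.26 and -0.18 in LA and -0.20, -0.71, -0.64 and 1.06 in RA. RA array 4 was the highest of that dataset and the difference was -0.05 ± 0.34. The difference between the datasets was 1.03 ± 0.52 with an adjusted p of 0.714, so that the call in MF1_12 was not shown to be particular to it. The Ifi27 probes followed Ifi27l2a at a smaller scale. Probe ILMN_2681232 read 0.27, 0.38, 0.15 and 0.01 in LA of MF1_12 and -0.20, -0.09, -0.10 and 0.05 in RA, a 1.22-fold higher LA value with an adjusted p of 0.210. Both genes overlap in the RefSeq annotation (GRCm38.p6), and a shared signal was not tested.

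Ifi202b belongs to the p200 family of DNA-binding proteins and is known to differ widely in expression between mouse strains. Its probe ILMN_3085992 read 0.90, 1.40, 0.36 and 0.26 in the LA arrays of MF1_12 and 0.27, 0.29, -0.01 and -0.05 in the RA arrays. Each LA array exceeded the RA array of the same number, and the difference was 0.61 ± 0.23, or 1.52-fold, with an adjusted p of 0.367. Without LA array 2 the difference was 0.38. With the block the adjusted p was 0.0798, and with the block and without number 2 it was 0.00786 at a difference of 0.43, a fold below 1.5. This probe, too, was highest in the LA arrays 1 and 2 in which the fibroblast mean was highest. The probes of those markers differed in direction between the sides, and their part in the result was not tested. The other 2 Ifi202b probes read between -0.12 and 0.06 in all 8 arrays of MF1_12, and the genes of this family resemble each other. In SA_12 the difference of ILMN_3085992 was -0.05 ± 0.18.

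**Figure D3:**
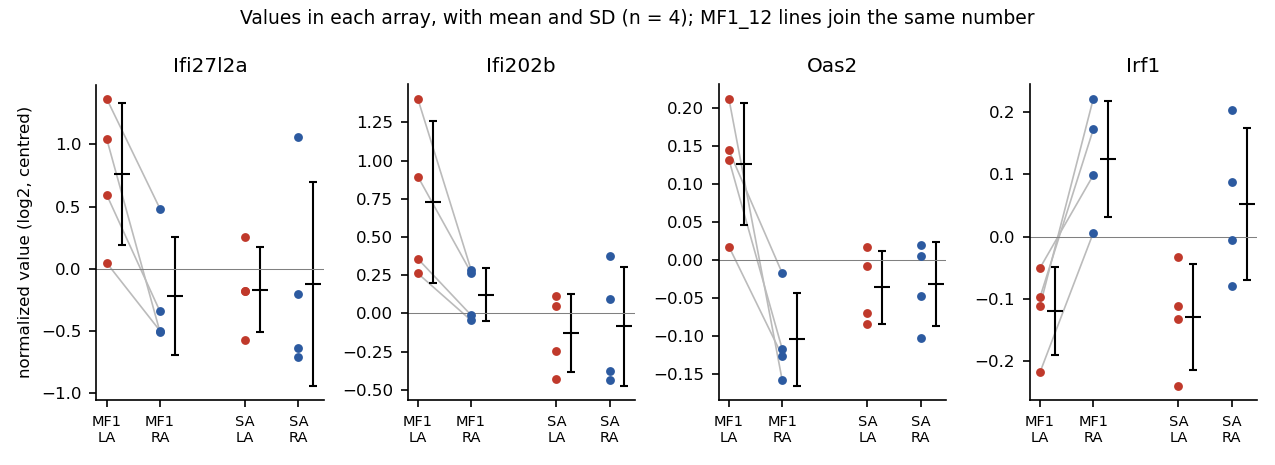
Points are the centred log2 values (vertical axis, a scale for each panel) of Ifi27l2a, Ifi202b (ILMN_3085992), Oas2 and Irf1 (ILMN_2834777) in each LA (red) and RA (blue) array of both datasets, black bars the mean and SD of 4 arrays, and grey lines join the same replicate number of MF1_12. All 4 lines of Ifi27l2a fall from LA to RA, and all 4 of Irf1 rise.

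Some interferon-inducible GTPases of MF1_12 read alike in both atria of a number, but no member passed the test of the number. The GTPases described here were picked by their values in these arrays. The replicate number was tested with side as a term (F test of limma). No member passed at an adjusted p under 0.05, where 0.241% of all probes did, and 15 members of 14 genes had an unadjusted p under 0.05, or 15.8% against 12% of all probes, a share close to the background. Of these 15, 13 were highest in number 1 or 2 and 9 spread over more than 0.5 between the numbers. Such counts were not made over all probes, and number 2 holds the LA array that stood apart, so they describe these 15 probes only. Ifi47, an Irg GTPase, was nearest to the threshold. It read 0.26, 0.70, -0.17 and -0.07 in LA and 0.04, 0.59, -0.22 and -0.04 in RA. Both atria of number 2 were high and both of number 3 low, a 1.79-fold spread of the means of the numbers with an adjusted p of 0.0523. Gbp2 probe ILMN_3122961 read 0.06, 0.52, -0.42 and -0.37 in LA and 0.25, 0.27, -0.34 and -0.26 in RA. Numbers 1 and 2 lay above 3 and 4 in both atria, by a 1.71-fold spread with an adjusted p of 0.108. The other Gbp2 probes stayed between -0.14 and 0.10 in MF1_12.

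Gbp3 showed the same division on both its probes. ILMN_2918002 read 0.57, 0.70, 0.00 and -0.17 in LA and 0.51, 0.05, -0.19 and -0.32 in RA, a 1.72-fold spread between numbers with an adjusted p of 0.153. Numbers 1 and 2 were again above 3 and 4. The Irg GTPase Igtp, which guards host vacuoles from the others, read 0.22, 0.28, 0.04 and 0.10 in LA and 0.10, 0.19, -0.39 and -0.18 in RA. Its relative Irgm2 read 0.20, 0.23, 0.19 and 0.05 in LA and 0.40, 0.07, -0.24 and -0.19 in RA. For both genes, numbers 3 and 4 were low mainly in RA, and Irgm2 did not reach an unadjusted p under 0.05. Gbp2b ran the other way, at -0.14, 0.30, 0.63 and 0.72 in LA and -0.02, -0.09, 0.40 and 0.48 in RA. Both atria of numbers 3 and 4 were the highest, and its adjusted p was 0.156. Irf3 probe ILMN_2664319 also was lowest in number 1 and highest in number 4. Marker means went with some of these probes and not with others. The mean of 7 leukocyte marker genes was 1.11 and 0.50 in the LA and RA arrays of number 2, where Ifi47 was highest and Gbp2 was high. It was -0.21 to 0.12 in the other 6 arrays of MF1_12. Over all 8 arrays its correlation was 0.81 with Ifi47 and 0.80 with Gbp2 probe ILMN_3122961, and 0.65 and 0.64 without LA array 2. With Igtp, Irgm2 and Gbp2b it was 0.38, 0.20 and -0.25. With the Gbp3 probes it was 0.51 and 0.49, and -0.03 and 0.00 without LA array 2. The fibroblast mean, whose probes differed in direction between the sides, was highest in LA arrays 1 and 2, in which both Gbp3 probes were highest too. The part of these marker means in the division of the numbers was not tested. Without both arrays of number 2 the F test passed 6 member probes among 1042 probes of the array. They were those of Gbp2, Gbp2b, Irf3, Ifi202b and both of Gbp3. The calls by number thus rested on which arrays entered.

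In SA_12 the numbers did not pair the arrays, and 3 member probes had an unadjusted p under 0.05 in the same test, where 5.05% of all probes did. Gbp2b had the widest range of the GTPases there, from -0.92 in LA array 1 to 0.29 in LA array 2. Irgm1 probe ILMN_2804037 had the largest difference between the sides, at -0.55, -0.16, -0.49 and -0.03 in LA and 0.16, -0.06, 0.03 and 0.18 in RA. LA array 4 reached into the range of RA, and the difference of -0.39 ± 0.11, or 1.31-fold, had an adjusted p of 0.156. Without LA array 4 it was -0.48 with an adjusted p of 0.0358, a fold below 1.5. The other Irgm1 probes gave 0.15 and 0.08, the opposite sign.

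**Figure D4:**
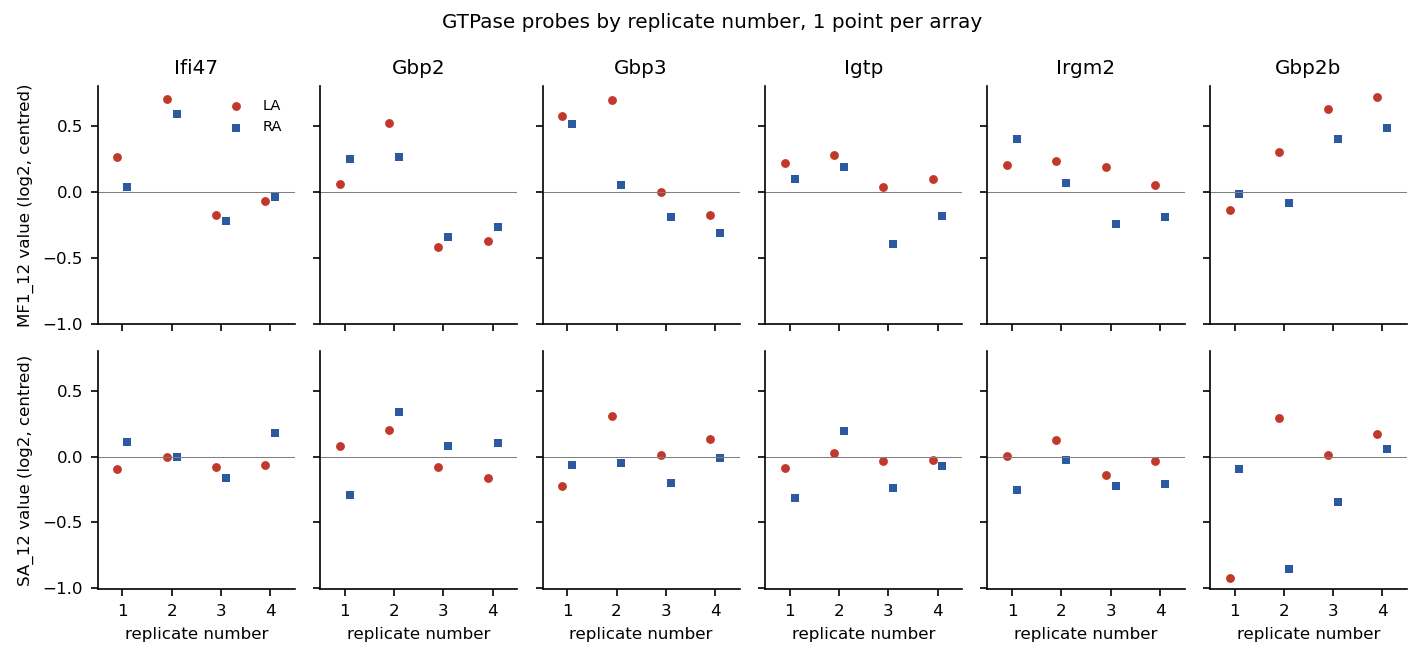
Centred log2 values (vertical axis) of 6 GTPase probes by replicate number (horizontal axis), with LA arrays as red circles and RA arrays as blue squares, for MF1_12 above and SA_12 below. In MF1_12 both atria of numbers 1 and 2 lie above those of 3 and 4 for Gbp2 (0.06 to 0.52 against -0.42 to -0.26), and Gbp2b runs the other way.

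The promoters of all 6 GTPases plotted by replicate number, Irgm2 included although it did not reach an unadjusted p under 0.05, are shown with those letters in capitals that match the core of the interferon-stimulated response element (GAAA, any 2 bases and GAAA again) or a gamma-activated site (TTCNNNGAA), on either strand, beside that of Isg15, whose values did not divide the mice. The sequences are the 100 bases before the gene start, 5′ to 3′ on the strand of the gene, from RefSeq (GRCm38.p6).
Gbp2, chr3:142620563-142620662, + strand: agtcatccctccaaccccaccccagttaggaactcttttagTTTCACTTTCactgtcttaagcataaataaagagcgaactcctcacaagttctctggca
Gbp3, chr3:142559944-142560043, + strand: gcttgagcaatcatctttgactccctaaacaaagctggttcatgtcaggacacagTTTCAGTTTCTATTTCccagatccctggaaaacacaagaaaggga
Gbp2b, chr3:142594747-142594846, + strand: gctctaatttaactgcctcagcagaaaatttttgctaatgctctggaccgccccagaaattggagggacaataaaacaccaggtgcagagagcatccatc
Ifi47, chr11:49076487-49076586, + strand: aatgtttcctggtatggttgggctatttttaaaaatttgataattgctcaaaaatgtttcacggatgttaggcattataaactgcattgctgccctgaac
Igtp, chr11:58199456-58199555, + strand: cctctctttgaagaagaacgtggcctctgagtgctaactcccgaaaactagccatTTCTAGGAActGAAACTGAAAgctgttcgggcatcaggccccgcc
Irgm2, chr11:58214877-58214976, + strand: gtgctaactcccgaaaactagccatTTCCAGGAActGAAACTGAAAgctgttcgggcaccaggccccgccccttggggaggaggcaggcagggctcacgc
Isg15, chr4:156200819-156200918, - strand: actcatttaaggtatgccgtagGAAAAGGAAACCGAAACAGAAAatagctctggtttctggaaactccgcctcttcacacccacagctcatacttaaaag

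Ifi47, the GTPase with the lowest p by replicate number, held neither pattern in these bases or in the longer window described next, and Gbp2b held 1 core match farther out, at 137 bases. Gbp2 held 1 match of the response element core 59 bases before its start, and Gbp3 held 2 that overlap, at 45 and 39 bases. Igtp and Irgm2 each carried a gamma-activated site and a response element core separated by the same letters, and their windows shared a run of 61 bases. Isg15 held 3 overlapping matches of the core and no gamma-activated site. Windows of 300 bases, from 250 before to 50 after the start, were given for 43 of the 59 genes, and not for Ifi27l2a. Of these 43, 21 held the core, or 48.8%, where 3.99% of all genes with a window did. A gamma-activated site stood in 13 of them, or 30.2%, against 9.55% of all genes. The 2 patterns are short, and a match is a description of the letters only. Among the 12 genes with a window and an unadjusted p under 0.05 for the replicate number of MF1_12, 5 held the core, namely Gbp2, Gbp2b, Gbp3, Ifih1 and Igtp.

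The Ifi30, Irf5 and Irf8 probes were highest in LA array 2 of MF1_12. Irf4, a factor of lymphocytes, read 0.03 there and was highest in RA array 2 at 0.19. Irf4 and Irf8 were picked after their values were seen. Ifi30 encodes a lysosomal thiol reductase of antigen-presenting cells, and its probe ILMN_1228213 read 0.00, 1.37, 0.11 and -0.11 in LA and -0.11, 0.23, 0.17 and -0.05 in RA. Array 2 stood far above the other LA arrays, and without it the difference moved from 0.28 to -0.06. The second Ifi30 probe read 0.72 in that array and at most 0.06 in the other 7. Irf5 and Irf8, factors of macrophages and other myeloid cells, read 0.60 and 0.43 in LA array 2, the highest of the dataset for both. The leukocyte mean was highest in the same array, at 1.11. That of 10 macrophage markers was 0.63 in LA array 2 and -0.27 to 0.27 elsewhere in MF1_12. The mean of 5 B cell markers was also highest in LA array 2, at 0.17. For 7 neutrophil markers the mean was 0.40 in LA array 2 and 0.71 in RA array 2. Their part in the values of Ifi30, Irf5 and Irf8 was not tested.

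In SA_12 Irf5 read -0.23, -0.18, -0.08 and -0.02 in LA and 0.12, 0.00, 0.04 and 0.22 in RA. The sides did not overlap, and the difference of -0.22 ± 0.07, or 1.17-fold, had an adjusted p of 0.155. Irf8 gave -0.11 ± 0.05 with an adjusted p of 0.408. The leukocyte mean of SA_12 was -0.20 to -0.03 in LA and -0.02 to 0.20 in RA, and that of the macrophage markers -0.29 to 0.00 in LA and 0.05 to 0.18 in RA. Of the 18 macrophage probes of SA_12, 11 had an unadjusted p under 0.05 with higher values in RA and 1 with higher values in LA. The shares of all probes were 6.47% and 6.16%. Among them 1 probe each of the lysozyme genes Lyz1 and Lyz2 passed, where 0.63% of all probes did. Over the 8 arrays of SA_12, Irf5 had a correlation of 0.65 with the macrophage mean and 0.73 with the leukocyte mean. It was also 0.65 with the mean of 5 blood cell markers and -0.88 with the fibroblast mean. Irf5 and the macrophage, leukocyte and blood cell means each separated the sides. Their correlations thus hold the difference between the sides and do not show that they vary together within a side. All 5 blood cell probes were higher in RA by unadjusted p under 0.05. Within LA the macrophage mean read -0.29, -0.03, 0.00 and -0.27 and the leukocyte mean -0.20, -0.03, -0.13 and -0.17. Neither followed Irf5 there. Within RA they read 0.18, 0.05, 0.11 and 0.08, and 0.20, -0.02, -0.01 and 0.08. The part of any of these markers in the values of Irf5 was not tested.

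**Figure D5:**
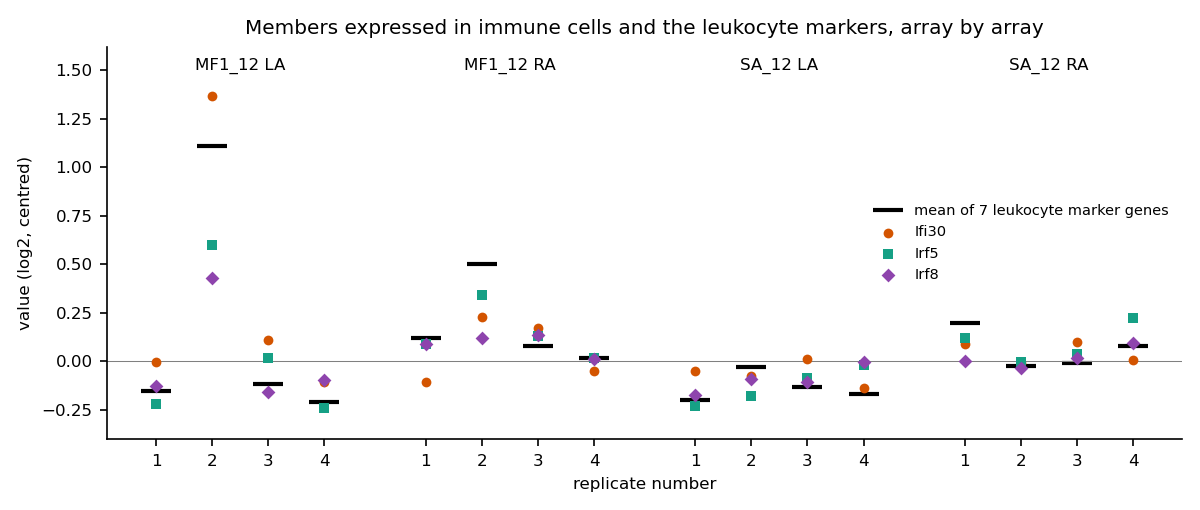
Centred log2 values (vertical axis) of Ifi30, Irf5 and Irf8 in each of the 16 arrays (horizontal axis, by group and replicate number), with black bars for the mean of 7 leukocyte marker genes. LA array 2 of MF1_12 is the highest for all of them, with Ifi30 at 1.37 and the marker mean at 1.11.

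The side effect itself was compared between the datasets with an interaction term. No member passed at an adjusted p under 0.05, where 0.00778% of all probes did, and 6 members had an unadjusted p under 0.05, against 7.37% of all probes. They were Oas2, Stat2, Ifi27, Ifi202b, Irf2bpl and Irgm1, with 1 probe each. Oas2 had the lowest adjusted p, 0.392, for a difference of 0.24 ± 0.07 between the datasets.

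Genes of the interferon system outside the symbol rule were called at one gene only. They comprised interferons, their receptors and JAK kinases, inhibitors, nucleic acid sensors, further induced genes and antigen processing genes, 102 measured of 114 listed, on 149 probes. In MF1_12 no probe passed with higher values in LA and 3 passed with higher values in RA, where 0.79% of all probes passed in either direction. All 3 were Ptpn11, the tyrosine phosphatase SHP-2 that dampens interferon signalling and also serves growth factor signalling. Probe ILMN_2743723 read -0.44, -0.48, -0.31 and -0.28 in LA and 0.51, 0.26, 0.41 and 0.18 in RA. The sides were far apart, with a difference of -0.72 ± 0.08 and an adjusted p of 0.00429. In SA_12 the same probe gave -0.31 ± 0.11 with an adjusted p of 0.222. None of the 149 probes passed there, where 0.63% of all probes did. The largest difference of SA_12 in these lists was that of Cd74, the class II chaperone of antigen-presenting cells, which was picked after its values were seen. Its probe ILMN_1221817 read -1.90, -0.07, -0.98 and -1.26 in LA and 1.41, 0.05, 0.29 and 0.26 in RA of SA_12. Every RA array was above every LA array, and the difference of -1.56 ± 0.38 had an adjusted p of 0.0772. In MF1_12 this probe was highest in LA array 2 at 2.14 and in RA array 2 at 1.19, the arrays with the highest leukocyte means, and its difference was -0.71 ± 0.67. By unadjusted p under 0.05, 8 were higher in LA and 9 in RA in MF1_12, where 5.27% and 5.67% of all probes were, a share near the background. In SA_12 these counts were 4 and 13, against 6.16% and 6.47% of all probes. The 19 measured interferon genes themselves had 22 probes with differences of -0.13 to 0.12 in MF1_12 and -0.10 to 0.11 in SA_12, and the receptors and JAK kinases 19 probes with medians of 0.00 and 0.04.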

How the data were processed

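Genome Studio gave the authors the array signals, which GeneSpring then normalized by quantiles, one dataset at a time, and centred on the median of the probe. These deposited log2 values were taken unchanged, so that background and detection are unknown and folds of dim probes may be understated. A table of signals with 16 columns that carry no sample name was not used. Gene names came from the platform annotation. Both sides entered a fit per dataset (limma 3.58.1, with moderated variances and without a block, under R 4.3.3). The p-values were adjusted by Benjamini-Hochberg over all 25697 probes, and a call needed an adjusted p below 0.05 together with more than 1.5-fold. Whether numbers pair arrays was checked by the correlation of deviations across probes, which was 0.23 to 0.499 for the same numbers of MF1_12 and at most 0.0203 for others. Over the member probes alone it was 0.24 to 0.60 for the same numbers and at most 0.38 for others. No source states the pairing. On simulated data with independent noise and 200 changed probes, the fit for MF1_12 recovered 76.4% of 1.6-fold and 93.6% of 2-fold changes, whereas the fit for SA_12 recovered 86% and 97.2%. The members, the gene lists and the tests were chosen with earlier results of these data known. Probes named were those that passed any fit, the 10 largest differences and 10 widest ranges per dataset, and the Stat2, Irf1, Irf7, Irf9, Isg15 and Usp18 probes. Others, such as Ifih1, Irf8 and the Mx probes, were chosen after their values were seen. Alternatives were the replicate block, an ordinary variance, the adjusted p alone, all 16 arrays in one fit, array weights, other scalings, averaging the probes of a gene and leaving out each array.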

Additional observations from a re-analysis of the deposited data

Results flagged for a closer look

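In 144 groups of 4 arrays, from 36 named probes, 10 held an array whose gap to its nearest neighbour was above Dixon's critical share of the range. Chance gives about 5% for probes not picked by their values. Many of these probes were named for wide ranges or large differences, so the count cannot be set against that rate. In LA of MF1_12, Ifi30 probe ILMN_1228213 read 1.37 in array 2 against -0.11 to 0.11 in the others, and Isg15 read -0.22 in array 4 against 0.07 to 0.09. In RA of MF1_12, Ifi27l2a read 0.48 in array 2 against -0.51 to -0.34, Irf1 probe ILMN_2599782 read -0.057 in array 3 against 0.08 to 0.10, and Usp18 probe ILMN_3054914 read 0.11 in array 1 against -0.04 to -0.03. In LA of SA_12, Irf1 probe ILMN_2649067 read 0.20 in array 1 against -0.09 to -0.04. In RA of SA_12 there were 4. Ifi30 probe ILMN_2767918 read 0.097 in array 1 against 0.01 to 0.02, and Stat2 read -0.085 in array 1 against 0.00 to 0.01. Irgm1 probe ILMN_1234539 read -0.26 in array 3 against -0.02 to 0.03, and Usp18 probe ILMN_3054914 read -0.18 in array 2 against -0.01 to 0.01.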

How the results depend on the processing

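Between LA and RA, no member was called in either dataset under any alternative but the replicate block. In MF1_12 the block called 1, Ifi27l2a, and also 1 with both arrays of number 2 left out, a setting added after the data were seen. The block called no member of SA_12, where the numbers did not pair the arrays (correlations of -0.112 to 0.138). Leaving out single arrays gave 0 to 0 calls in both comparisons of the sides and in that of the datasets, with medians of 0.00 to 0.02 in MF1_12 and -0.01 to 0.01 in SA_12. Members with an unadjusted p under 0.05 in SA_12 fell from 7 to 3 without LA array 2 or RA array 1 and to 4 without RA array 3. By replicate number, 3 members of MF1_12 passed after quantile normalization of all 16 arrays, among 327 probes of the whole array. Without both arrays of number 2, 6 members passed among 1042 probes. Without single arrays 0 to 15 members passed, with 7 among 1072 probes lacking LA array 2 and 15 among 3736 lacking RA array 2. Calls thus rose over the whole array too in these settings. In SA_12 the member count without single arrays was 0 to 0. Of 320 values of named probes under alternatives, 2 turned in sign, Ifi30 in MF1_12 to -0.062 without LA array 2 (-0.062 to 0.43 without single arrays) and Irgm1 probe ILMN_1234539 in SA_12 to -0.055 with the probes of the gene averaged. Oas2 had an adjusted p of 0.0163 with all 16 arrays in one fit, at 1.17-fold. The cause of these changes was not tested. The planned background correction and detection filter were not run, since the columns of signals could not be tied to samples. The number of arrays limits the precision.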
